A study of Gallus gallus with 8 samples.

Results

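The genes described here are the fibroblast growth factor receptors FGFR1, FGFR2 and FGFR3, the receptor-like gene FGFRL1, the ligand FGF2, and the intracellular feedback inhibitors SPRY1, SPRY2, SPRED1 and SPRED2. All probe sets whose only gene symbol in the platform annotation is one of these 9 were taken, which gave 20 of the 38439 probe sets tested. They were measured in chondrocytes of the chick tibiotarsus growth plate, the cartilage that lengthens the lower leg. Proliferative chondrocytes came from chicks 3 weeks old and hypertrophic chondrocytes from chicks 1 day old, with 4 Affymetrix arrays in each group. Both groups were pools of isolated cells and no treatment was given; the labels name no strain or sex. Stage and age differ together here and cannot be told apart.

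FGF ligands bind a receptor tyrosine kinase together with heparan sulfate, and the receptor then signals through adaptor proteins to RAS and the ERK kinases. FGFR1, FGFR2 and FGFR3 carry the kinase, whereas FGFRL1 binds ligand but has no kinase domain. Sprouty and SPRED proteins are induced or engaged by this pathway and restrain RAS and RAF. In mammals FGFR3 slows the growth of the growth plate and its activating mutations cause achondroplasia, FGFR1 is known from hypertrophic chondrocytes, and FGFR2 from the perichondrium and bone-forming cells.

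The deposited values are log2 intensities made by RMA, and all differences are hypertrophic minus proliferative on that scale. They were tested with limma over all 38439 probe sets, two-sided, with a Benjamini-Hochberg adjusted p under 0.05 as the threshold, and errors of differences are standard errors of that fit. Background was set at 4.75, from the 744 probe sets that target viral or reporter sequences. Arrays 3 and 4 of each group were much closer to each other than any other pair: over the brighter 19219 probe sets their difference had an SD of 0.247 in the proliferative and 0.250 in the hypertrophic group, against 0.400 to 0.850 for other pairs. On the first principal component hypertrophic array 1 lay closest to the proliferative group, scoring 6.93 against 46.0 to 77.0 for the other hypertrophic arrays. On the second component it scored 76.4 and lay farther from the proliferative arrays than any other hypertrophic array. Calls were therefore repeated after averaging arrays 3 and 4 of a group into 1 sample. Since the labels do not say whether each array had a pool of its own, p-values cover only the spread among these arrays, which may be technical. The cartilage genes COL2A1 and ACAN were abundant, with means of 14.66 and 14.27 in proliferative cells and 14.47 and 14.01 in hypertrophic cells. Collagen X, COL10A1, which defines hypertrophic chondrocytes, was also abundant in both, at means of 13.4 and 14.1. It read 11.99, 13.42, 14.14 and 14.07 on proliferative arrays 1 to 4. The difference of COL10A1, 0.66 ± 0.43, did not pass (adjusted p = 0.444), and IHH differed by -0.43 ± 0.29 (adjusted p = 0.450). Of 12 hypertrophic markers 4 were higher in hypertrophic cells and 8 did not pass, and of 12 cartilage markers 3 were lower. The 4 were MMP13, ANKH, MEPE and SPP1, named after their values were seen. They differed by 3.81 ± 1.00, 3.55 ± 0.63, 3.49 ± 0.22 and 2.77 ± 0.34.

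FGFR2, FGFR1 and SPRY1 were higher in hypertrophic chondrocytes, and no probe set of the 9 genes passed the threshold as lower. FGFR2 had the largest rise, 8.77-fold by its brightest probe set. Of the 20 probe sets, 6 passed, all higher, and 14 did not pass. Of all 38439 probe sets, 4.49% were called higher and 4.27% lower. By the brightest probe set of each gene 3 of 9 were higher, against 7.34% of all 13009 genes, and 6 did not pass. Means of 3 probe sets lay below background in both groups, 1 each of FGFR2, FGFR3 and SPRED1. With arrays 3 and 4 averaged, 1 probe set passed, the brightest of FGFR2, while 1.11% of all probe sets were called higher. The median difference was 0.43 over the 20 probe sets and -0.03 over all probe sets.

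**Figure D1:**
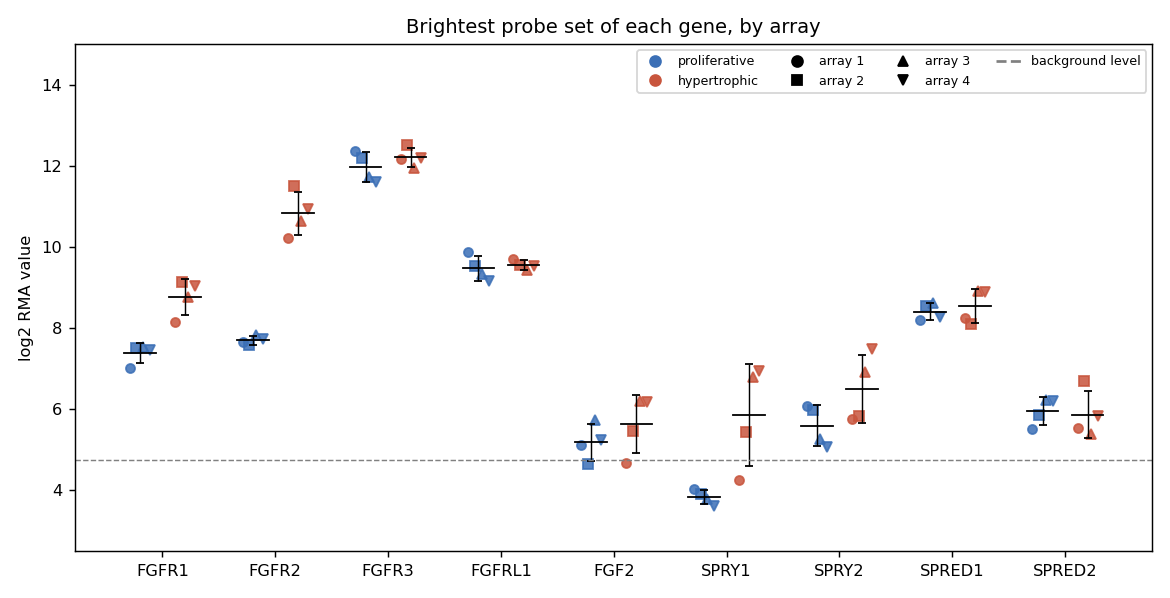
Log2 RMA value of the brightest probe set of each of the 9 genes on each array; colours mark the group, symbols the array number, black lines the mean and SD of 4 arrays, and the dashed line the background level of 4.75. FGFR1 and FGFR2 lie higher on all 4 hypertrophic arrays than on any proliferative array, and SPRY1 lies below background on all proliferative arrays.

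**Figure D2:**
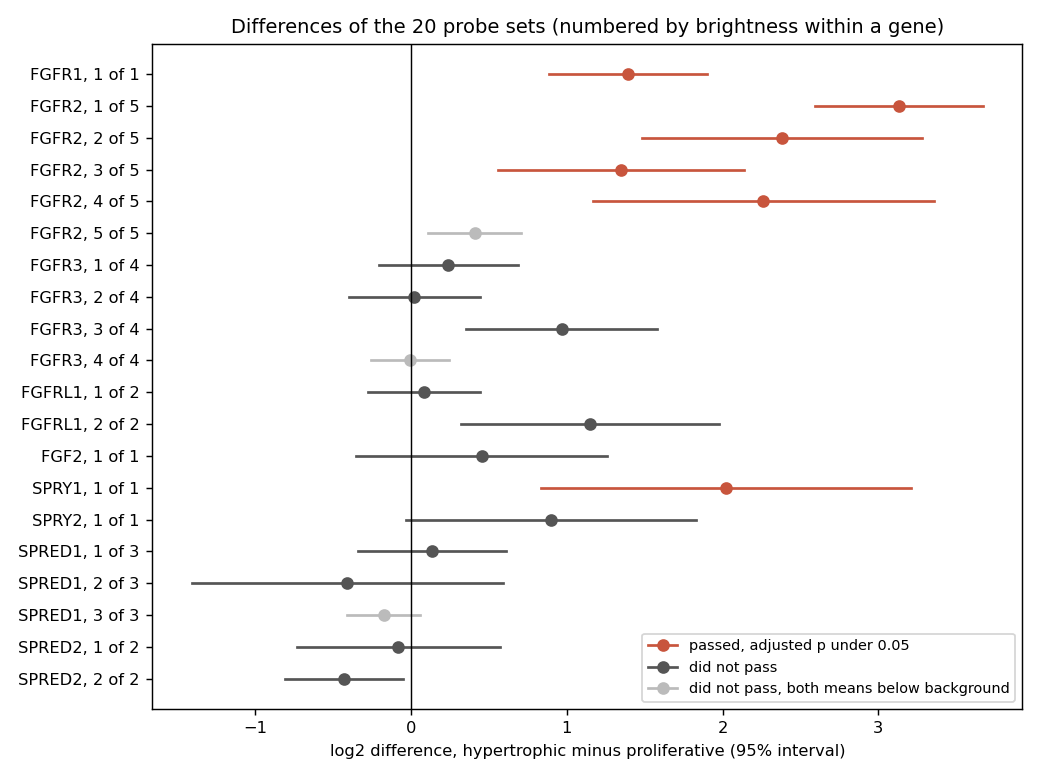
Log2 difference, hypertrophic minus proliferative, of each of the 20 probe sets with its 95% confidence interval; probe sets are numbered by brightness within a gene and coloured by whether they passed. The 6 that passed are those of FGFR1, SPRY1 and the 4 brighter of FGFR2.

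FGFR2, a kinase receptor whose splice forms differ in the ligands they prefer, has 5 probe sets. The brightest read 7.64, 7.57, 7.83 and 7.72 on proliferative arrays 1 to 4 and 10.22, 11.49, 10.64 and 10.94 on hypertrophic arrays 1 to 4. Every hypertrophic array was thus above every proliferative array, with array 1 the lowest of the hypertrophic group. The difference was 3.13 ± 0.24 (n = 4 per group, adjusted p = 3.37e-04 in limma). Of the 13009 genes, 57 had a larger rise.

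The second probe set of FGFR2 read 7.11, 7.18, 7.50 and 7.43 in proliferative and 8.31, 10.33, 9.98 and 10.14 in hypertrophic cells. It rose by 2.38 ± 0.40 (adjusted p = 0.0086). Again the groups did not overlap and hypertrophic array 1 was the lowest of its group. The fourth, at 5.14, 5.15, 6.11 and 5.95 against 6.28, 8.29, 8.38 and 8.44, rose by 2.26 ± 0.48 (adjusted p = 0.0230). Hypertrophic array 1 stood apart here, only slightly above the highest proliferative array. The third read 5.88, 5.95, 6.39 and 6.46 against 6.45, 7.48, 7.89 and 8.25 and rose by 1.35 ± 0.35 (adjusted p = 0.0461). Its groups overlapped by a narrow margin, at proliferative array 4 and hypertrophic array 1. The fifth, at 3.26 ± 0.17 and 3.67 ± 0.19 (mean ± SD, n = 4), was below background in both groups.

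The differences of FGFR2 were positive both within arrays 1 and 2 and within arrays 3 and 4, at 3.25 and 3.01 for the brightest probe set, 2.17 and 2.59 for the second, 1.05 and 1.64 for the third, and 2.14 and 2.38 for the fourth. When single arrays were left out, the third probe set kept its call only without hypertrophic array 1 and the fourth only without that array or proliferative array 3 (adjusted p up to 0.114 and 0.0663), and after averaging of arrays 3 and 4 the second, the third and the fourth had adjusted p = 0.0773, 0.181 and 0.118. The brightest passed in all of these fits, with adjusted p = 0.0100 for averaged arrays.

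**Figure D3:**
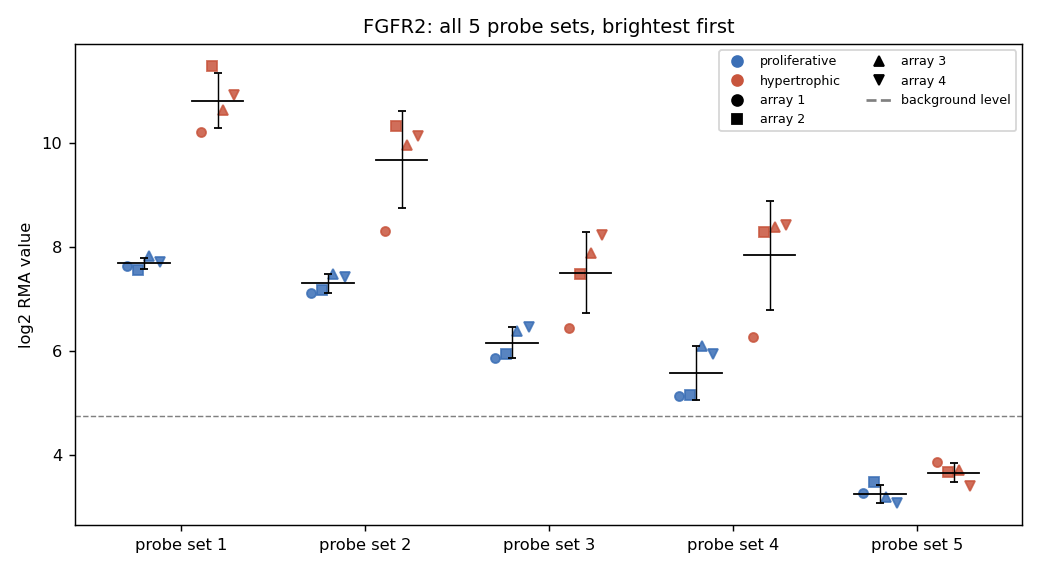
Log2 RMA values of the 5 probe sets of FGFR2 on each array, brightest first; colours mark the group, symbols the array number, black lines the mean and SD of 4 arrays, and the dashed line the background level. The first 4 probe sets have higher hypertrophic means, and the fifth is below background in both groups.

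FGFR1, a kinase receptor with 1 probe set, read 7.02, 7.50, 7.53 and 7.45 in proliferative and 8.14, 9.14, 8.75 and 9.04 in hypertrophic cells. All hypertrophic arrays exceeded all proliferative arrays, and array 1 was the lowest in each group. FGFR1 rose by 1.39 ± 0.22, or 2.63-fold (adjusted p = 0.00746). The difference was 1.39 within arrays 1 and 2 and 1.40 within arrays 3 and 4. It passed whichever single array was left out, and missed the threshold once arrays 3 and 4 were averaged (adjusted p = 0.0637). The 95% interval of its difference was 0.89 to 1.90, which lies below that of the brightest probe set of FGFR2 (2.59 to 3.67) and overlaps those of the second (1.48 to 3.28), the third (0.56 to 2.14) and the fourth (1.17 to 3.35). The differences of FGFR1 and FGFR2 were not tested against each other.

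FGFR3, the receptor that restrains chondrocyte growth in mammals, was abundant in both groups by 3 of its 4 probe sets, and none passed. The brightest read 12.35, 12.20, 11.71 and 11.59 in proliferative and 12.16, 12.52, 11.93 and 12.20 in hypertrophic cells. The ranges overlap in part, proliferative arrays 3 and 4 lying below every hypertrophic array, and the difference was 0.24 ± 0.20 (95% interval -0.21 to 0.69, adjusted p = 0.558). The second, at means of 11.49 ± 0.23 and 11.51 ± 0.34 (SD, n = 4), differed by 0.02 ± 0.19 (95% interval -0.40 to 0.44). Its value within arrays 1 and 2 was -0.43 and within arrays 3 and 4 it was 0.48, in opposite directions.

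The third probe set of FGFR3 gave a larger difference. It read 10.24, 9.14, 9.85 and 9.49 in proliferative and 10.90, 11.06, 10.12 and 10.50 in hypertrophic cells, with an overlap only between proliferative array 1 and hypertrophic array 3. The difference of 0.97 ± 0.27 missed the threshold (95% interval 0.35 to 1.58, adjusted p = 0.0622). Leaving out proliferative array 1 or hypertrophic array 3 brought it past the threshold (adjusted p = 0.0452 and 0.0455). So did a block that sets arrays 1 and 2 apart from the rest (adjusted p = 0.0352), whereas averaging arrays 3 and 4 gave adjusted p = 0.155. The fourth probe set was below background in both groups, with a mean of 4.29 in each. The probe sets of FGFR3 thus gave unequal differences, and which transcript parts they cover was not analysed here.

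FGFRL1, the receptor without a kinase, had 1 bright and 1 dimmer probe set, and neither passed. The brighter read 9.88, 9.52, 9.32 and 9.16 in proliferative and 9.71, 9.55, 9.44 and 9.52 in hypertrophic cells, all hypertrophic values lying inside the proliferative range. Its difference was 0.08 ± 0.16 (95% interval -0.27 to 0.44, adjusted p = 0.837). The dimmer read 7.19, 5.99, 6.21 and 5.84 against 7.01, 8.32, 6.97 and 7.52. Proliferative array 1 was higher than 2 of the hypertrophic arrays, and the other 3 proliferative arrays were lower than all of them. The difference was 1.15 ± 0.37 (95% interval 0.32 to 1.98, adjusted p = 0.0920). Without proliferative array 1 it was 1.44 and passed (adjusted p = 0.0429), as it did with array weights (1.14, adjusted p = 0.0301). After averaging of arrays 3 and 4 it was 1.12 and did not pass (adjusted p = 0.269). The 4th kinase receptor, FGFR4, is not among the 9 genes and was looked at later; its difference was 0.14 ± 0.29 (adjusted p = 0.858).

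FGF2, a ligand held in cartilage matrix by heparan sulfate, was dim, and lay below background on 1 array of each group. It read 5.12, 4.64, 5.72 and 5.22 in proliferative and 4.68, 5.47, 6.20 and 6.17 in hypertrophic cells. Hypertrophic arrays 3 and 4 were the highest of the 8, while hypertrophic array 1 was the second lowest. The difference was 0.45 ± 0.36 and did not pass (95% interval -0.35 to 1.26, adjusted p = 0.534). In assembly GRCg7b FGF2 and SPRY1 are near neighbours on one chromosome, with SPATA5 as the only protein-coding gene between them. SPATA5 differed by 0.05 ± 0.12 (adjusted p = 0.887).

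SPRY1, a Sprouty inhibitor of receptor tyrosine kinase signalling, was above background on hypertrophic arrays only. Its values were 4.04, 3.89, 3.78 and 3.61 on proliferative arrays, all below background, and 4.26, 5.44, 6.78 and 6.93 on hypertrophic arrays. Hypertrophic array 1 was below background as well, and arrays 3 and 4 were the highest. The groups did not overlap, and SPRY1 rose by at least 1.10 against the background level (estimate 2.02 ± 0.52, adjusted p = 0.0460). The bound is on the estimate and holds no sampling error. The difference was 0.89 within arrays 1 and 2 and 3.16 within arrays 3 and 4. When single arrays were left out, the call held only without hypertrophic array 1 (adjusted p up to 0.120 in the other 7 fits), and it was lost after averaging of arrays 3 and 4 (adjusted p = 0.226).

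SPRY2, the related inhibitor, has 1 probe set. It read 6.07, 5.98, 5.25 and 5.05 in proliferative and 5.75, 5.82, 6.91 and 7.47 in hypertrophic cells. Arrays 1 and 2 of both groups were alike, whereas in arrays 3 and 4 the proliferative values were the lowest and the hypertrophic values the highest of the 8. The difference of 0.90 ± 0.41 did not pass (95% interval -0.03 to 1.83, adjusted p = 0.236); it was -0.24 within arrays 1 and 2 and 2.04 within arrays 3 and 4. With array weights estimated over all probe sets it was 1.49 and passed (adjusted p = 0.0139). After averaging of arrays 3 and 4 it was 0.52 and did not pass (adjusted p = 0.650). DUSP6, the ERK phosphatase that is a common transcript readout of FGF signalling, was named after its values were seen. It read 6.94, 7.21, 5.39 and 5.20 in proliferative and 6.03, 5.88, 6.59 and 6.78 in hypertrophic cells. As for SPRY2, its proliferative values were lower and its hypertrophic values higher on arrays 3 and 4 than on arrays 1 and 2. Its difference was -1.12 within arrays 1 and 2 and 1.39 within arrays 3 and 4, and 0.14 ± 0.47 over all arrays (adjusted p = 0.920). What arrays 1 and 2 do not share with arrays 3 and 4 is not given in the labels, and the unequal differences were not tested.

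**Figure D4:**
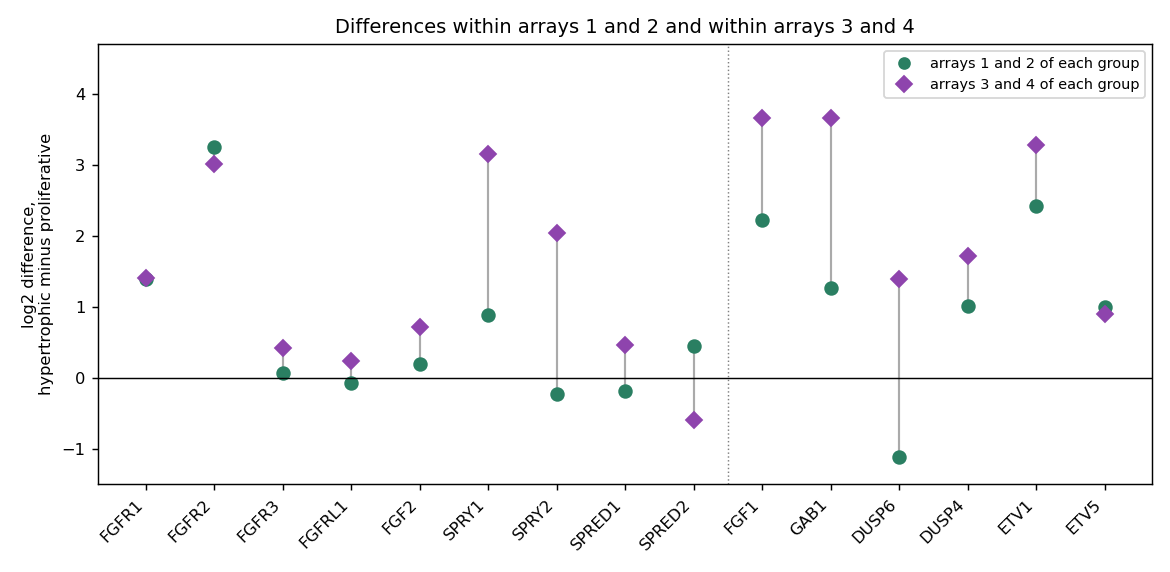
Log2 difference, hypertrophic minus proliferative, within arrays 1 and 2 (circles) and within arrays 3 and 4 (diamonds) for the brightest probe set of each of the 9 genes, and right of the dotted line for 6 other pathway genes chosen after their values were seen. The values of FGFR1 nearly coincide at 1.39 and 1.40, those of SPRY1 are 0.89 and 3.16, and those of SPRY2 and DUSP6 have opposite signs.

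The SPRED genes, whose products bind RAS pathway proteins at the membrane, did not pass by any probe set. The brightest of SPRED1 read 8.20, 8.53, 8.62 and 8.27 in proliferative and 8.25, 8.09, 8.91 and 8.89 in hypertrophic cells, which overlap. It differed by 0.13 ± 0.21 (95% interval -0.34 to 0.61, adjusted p = 0.794). The second read 6.09, 6.15, 6.80 and 6.81 against 5.17, 5.23, 6.96 and 6.85. In both groups arrays 1 and 2 were low and arrays 3 and 4 high, so the spread within a group exceeded the difference of -0.41 ± 0.44. The third was below background in both groups, at 3.09 and 2.92.

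The brighter probe set of SPRED2 read 5.50, 5.85, 6.23 and 6.19 in proliferative and 5.54, 6.69, 5.39 and 5.82 in hypertrophic cells, a difference of -0.08 ± 0.29 (95% interval -0.73 to 0.57). The other read 5.30, 5.42, 5.29 and 5.40 against 4.48, 4.82, 5.12 and 5.27. All hypertrophic values of that probe set lay below all proliferative values, by a narrow margin at array 4, and the difference of -0.43 ± 0.17 did not pass (95% interval -0.81 to -0.05, adjusted p = 0.162). It is the only one of the 20 probe sets whose groups did not overlap with hypertrophic cells lower; 5 did not overlap with hypertrophic cells higher, against 8.09% and 7.06% of all probe sets. A further 2 probe sets are annotated to both SPRED2 and TNRC6A and were left out.

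Among 113 other measured genes of the pathway in 7 lists, each by its brightest probe set, 12 rose, 5 fell and 96 did not pass. That is 10.6% higher and 4.42% lower, against 7.34% and 5.60% of all genes, and 33 of the 113 were below background in both groups. The median difference was 0.00 over these genes and -0.01 over all genes. With arrays 3 and 4 averaged, 5 rose and 3 fell, when 2.01% and 1.24% of all genes were called higher and lower.

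Of 17 other FGF ligands, 14 were below background in both groups. FGF1, a ligand that binds all FGF receptors, was the only one that passed. Its brightest probe set read 4.59, 4.83, 5.45 and 5.81 in proliferative and 6.48, 7.39, 9.12 and 9.46 in hypertrophic cells. The groups did not overlap, and it rose by 2.94 ± 0.63 (adjusted p = 0.0230). A pair of further probe sets of FGF1 differed by -0.03 ± 0.11 and -0.00 ± 0.15, and the call of FGF1 was lost after averaging (adjusted p = 0.109) and in 5 of the 8 fits without 1 array. FGF18, a ligand known in mouse growth plate cartilage, was below background in both groups, at 3.26 and 3.32, and was named after its values were seen. FGF9, named in the same way, was below background on all proliferative arrays. It read 3.53, 5.24, 6.22 and 6.71 on hypertrophic arrays 1 to 4. Its difference, at least 0.67 against background (estimate 1.85 ± 0.58), did not pass (adjusted p = 0.0882).

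Among 17 co-receptors and partners, the cadherin CDH2, which can bind FGF receptors at the cell surface, rose by at least 0.74 (estimate 1.75 ± 0.16, adjusted p = 6.64e-04), since its proliferative mean was below background. Of 20 genes that make and edit heparan sulfate, 3 rose and 1 fell. The sulfotransferase HS6ST1, below background in proliferative cells, rose by at least 0.10 (estimate 1.34 ± 0.16), HS3ST1 likewise by at least 0.38 (estimate 1.38 ± 0.32), and NDST2 rose by 0.52 ± 0.12, while EXTL2 fell, to a mean below background (estimate -0.96 ± 0.25, bound -0.19). When single arrays were left out, HS3ST1 kept its call in 1, EXTL2 in 2 and NDST2 in 3 of 8 fits, and none kept it after averaging (adjusted p = 0.190, 0.236 and 0.123).

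Next to the receptors, 2 of 18 adaptor and proximal signalling genes rose and 1 fell. FRS2, the docking protein that couples FGF receptors to GRB2 and SOS, read 7.15, 7.07, 6.70 and 7.001 in proliferative and 5.59, 5.98, 5.28 and 5.43 in hypertrophic cells. Its groups were well apart, and the log2 level fell by 1.41 ± 0.17 (adjusted p = 0.0021). The adaptor GAB1 rose by 2.46 ± 0.63 (adjusted p = 0.0447) and the exchange factor SOS2 by 1.57 ± 0.32 (adjusted p = 0.0190). GAB1 differed by 1.26 within arrays 1 and 2 and by 3.66 within arrays 3 and 4, and its further probe sets differed by 1.89 ± 0.72 and 1.41 ± 0.46 and did not pass. With single arrays left out GAB1 kept its call in 1 and SOS2 in 3 of 8 fits, and after averaging they had adjusted p = 0.216 and 0.135. Of 14 genes from RAS to ERK, HRAS rose by 1.28 ± 0.22 and MRAS fell by 1.01 ± 0.18 on the log2 scale, with adjusted p = 0.0822 and 0.0571 for averaged arrays.

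Of 11 other feedback inhibitors only DUSP4, a nuclear ERK phosphatase, passed: it rose by 1.36 ± 0.26 (adjusted p = 0.0155), or adjusted p = 0.0896 with averaged arrays. SPRY4, a further Sprouty gene, was named after its values were seen. By the brightest of its 3 probe sets its means, 4.74 and 4.72, lay just below the background level of 4.75. Proliferative arrays 2 and 4 and hypertrophic arrays 1 and 2 lay above that level. Of 16 ERK-responsive genes, 3 rose and 2 fell. ETV1, an ETS factor, read 4.14, 3.75, 4.67 and 4.13 in proliferative and 6.27, 6.46, 7.68 and 7.67 in hypertrophic cells. It rose by at least 2.27 against background (estimate 2.85 ± 0.36, adjusted p = 0.00255). The related ETV5, named after its values were seen, rose by 0.95 ± 0.13 (adjusted p = 0.0042) and the ETS repressor ELK3 by 1.65 ± 0.13 (adjusted p = 4.17e-04). ETV4 of the same list, also named after its values were seen, differed by 0.002 ± 0.16 by the brighter of its 2 probe sets (adjusted p = 0.997). The cyclin CCND1 fell by 1.505 ± 0.19 and MYC fell by 1.48 ± 0.22 on the log2 scale. By the brightest probe set of each, CDH2, HS6ST1, FRS2, ETV1, ETV5, ELK3, CCND1 and MYC passed with averaged arrays and whichever array was left out. CDH2, EXTL2, ETV1 and CCND1 have 2 probe sets each, DUSP4 has 3, NDST2 and SOS2 have 4 and ETV5 has 5. Only the brightest of each is given here. Of 8 measured genes of cell division 5 were lower as well, MKI67 by a difference of -1.76 ± 0.28. Within arrays 1 and 2 MYC, CCND1 and MKI67 differed by -1.89, -1.67 and -1.30. Within arrays 3 and 4 they differed by -1.06, -1.34 and -2.23. A link of CCND1 and MYC to cell division was not tested.

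**Figure D5:**
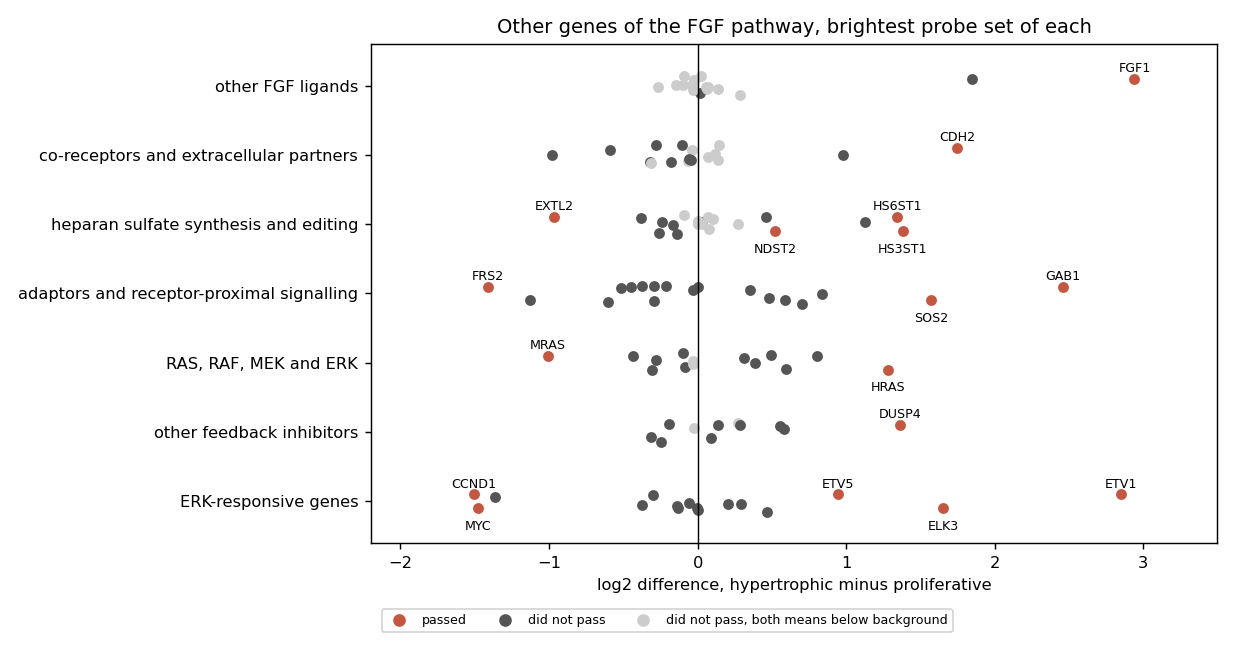
Log2 difference, hypertrophic minus proliferative, of 113 other FGF pathway genes by list, each by its brightest probe set; red points passed and carry their gene names, and pale points were below background in both groups. Of the 113 genes, 95 lie between -1 and 1, and the 12 genes that rose and the 5 that fell are named.

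Markers of other cell types were compared on the same arrays, because bulk values cannot tell a change in the cells present from a change in the level per cell. Of 15 endothelial markers 6 were higher, none lower and 9 did not pass; the mean log2 level of the list was 5.34 to 5.55 in proliferative and 5.98 to 6.27 in hypertrophic arrays. The endothelial cadherin CDH5 rose by 3.06 ± 0.33, while PECAM1 differed by 0.60 ± 0.42 (adjusted p = 0.475). Of 10 osteoblast and perichondrium markers none rose and 2 fell, with mean levels of 7.73 to 7.78 and 7.20 to 8.10. COL1A1 and COL1A2 differed by -0.16 ± 0.37 and -0.48 ± 0.19. Within arrays 1 and 2 and within arrays 3 and 4, COL1A1 differed by 0.64 and -0.97, and COL1A2 by -0.23 and -0.73. POSTN and TWIST1, named after their values were seen, differed by 2.98 and -1.06 within arrays 1 and 2. Within arrays 3 and 4 POSTN and TWIST1 differed by 0.06 and -0.43, and these unequal differences were not tested. Of 10 osteoclast markers 3 rose and 1 fell, with mean levels of 6.36 to 7.05 and 7.36 to 7.91, and CTSK differed by 1.08 ± 0.41 (adjusted p = 0.159). The 3 that rose were MMP9 (3.41 ± 0.75), ATP6V0D2 (at least 2.49, estimate 2.88 ± 0.38) and TNFRSF11A (0.49 ± 0.11). NFATC1 was the 1 that fell (-0.83 ± 0.15). Of 10 leukocyte markers 1 rose and 1 fell, with mean levels of 4.94 to 5.22 and 5.21 to 5.91, and PTPRC was below background in both groups. CD74 rose (1.66 ± 0.43) and CD3E fell (-0.47 ± 0.10). These leukocyte and osteoclast markers that passed were named after their values were seen. Of 7 adipocyte markers 2 rose and 1 fell, with mean levels of 5.31 to 5.58 and 5.80 to 6.58. None of 8 blood and none of 8 muscle markers passed. Mean endothelial, osteoclast and adipocyte levels were higher on all hypertrophic than on all proliferative arrays, as were FGFR1 and FGFR2 by brightest probe set. The mean level of the 12 hypertrophic markers was likewise higher on all hypertrophic arrays. With levels summed before the log, the osteoclast and adipocyte ranges of the groups overlapped. The endothelial sums stayed apart, at 9.78 to 10.11 in proliferative and 10.39 to 10.72 in hypertrophic arrays. The leukocyte sums did not overlap either, at 8.80 to 9.02 and 9.14 to 10.55. On hypertrophic array 1, where FGFR1 and FGFR2 were lowest of that group, CDH5, CTSK, MMP9 and ATP6V0D2 were highest of all arrays. PECAM1 was lowest of all arrays there, and TEK, an endothelial marker that passed, was lowest of the hypertrophic group (6.19). FLT1, TNFRSF11A and NFATC1 were not highest there, whereas VWF, SOX17 and SOX18 were. On hypertrophic array 2, where FGFR1 and FGFR2 were highest by brightest probe set, POSTN was highest as well (8.30). COL1A1 was highest on hypertrophic array 1, and COL1A2 and TWIST1 on proliferative arrays. TEK, FLT1, VWF, SOX17 and SOX18 were named after their values were seen. The part of these cell types in the rises of the receptors was not tested.

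Genes with the profile most like that of each member that passed were found by the smallest root mean square difference over the 8 arrays, after each profile was set to its own mean, among 9510 genes above background in at least 1 group. For FGFR2 these were RAMP2, DIO3 and PLXND1, at 0.307, 0.314 and 0.317 on the log2 scale. For FGFR1 they were CNTF, CFAP43 and GDPD5, at 0.0965, 0.146 and 0.155. For SPRY1 they were PRKX, OSBPL10 and PARP16, at 0.0969, 0.189 and 0.203. The nearest profile to FGFR2 was thus farther from it than the nearest ones to FGFR1 and SPRY1 were from theirs. Profiles were not scaled, and only 57 genes rose more than FGFR2, against 450 for FGFR1 and 216 for SPRY1. These distances therefore cannot tell how distinct the profile of FGFR2 is.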

How the data were processed

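Per the submitters' processing notes the deposited log2 intensity values were made by the authors with RMA, which corrects background, quantile-normalises arrays together, summarises each probe set and compresses differences among dim ones; neither its software nor its version is given in the sources used here. The deposited log2 values run from 2.52 to 14.7. There is no sequencing depth on arrays, so precision is limited by how many there are. Of 38535 rows, 96 control probe sets were left out. Symbols came from the platform annotation, updated by gene identifier through the RefSeq table of assembly GRCg7b: 27168 probe sets have 1 symbol, 177 several and 11094 none. No gene was named from several symbols.

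The test was limma 3.58.1 (lmFit, eBayes; R 4.3.3) over 38439 probe sets, checked on simulated data. Background is the highest per-array 95th percentile of 744 viral and reporter probe sets. Where 1 group mean lies below it, the bound sets each array of that group to at least this level.

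The members and gene lists were chosen with earlier results of these data known. Every member is named; of each pathway list, the 4 genes of largest difference among those that passed; for up to 3 members that passed, the 3 most similar profiles; and defining markers. Other genes are marked where named. Alternatives were 3 variance models, 3 normalisations, a filter on dim probe sets, blocks, averaged arrays and each array left out. The 3' minus 5' control values differed by 0.13 for GAPDH and -0.17 for ACTB (exact permutation test, two-sided, p = 0.229 and 0.600, smallest possible 0.0286).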

Additional observations from a re-analysis of the deposited data

Results flagged for a closer look

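FGFR1 read 7.02 on proliferative array 1, far below the other 3 proliferative arrays, which lie between 7.45 and 7.53 (Dixon ratio 0.849). The fourth probe set of FGFR2 read 6.28 on hypertrophic array 1, against 8.29 to 8.44 on the other 3 (Dixon ratio 0.933). A ratio above Dixon's 95% critical value for 4 arrays marked a value as apart; 40 groups of 4 arrays were examined and chance marks about 1 in 20.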

How the results depend on the processing

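Of the 6 probe sets that passed, those of FGFR1 and the 2 brightest of FGFR2 passed under every planned setting except averaged arrays 3 and 4, where the brightest of FGFR2 alone passed. SPRY1 also missed the threshold with equal array medians, cyclic loess and the replicate block (adjusted p = 0.0504, 0.05005 and 0.0588), and the third probe set of FGFR2 with equal medians (adjusted p = 0.0512). The filter on dim probe sets removed SPRY1 and 3 other member probe sets from the test, and there, as with cyclic loess, the third probe set of FGFR3 passed (adjusted p = 0.0423 and 0.0363). The cause was not tested.

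With arrays 3 and 4 averaged, 428 probe sets were higher and 327 lower, of the members 1 higher and none lower, and of the other pathway genes 5 higher and 3 lower; that setting has fewer samples. With array weights the counts were 3945 and 3811 for all probe sets and 22 and 10 for other pathway genes, and 9 member probe sets were higher, the dimmer of FGFRL1, SPRY2 and the fifth of FGFR2 (below background) in addition to the 6; with arrays 1 and 2 against the rest as a block they were 2680 and 2853, with 8 pathway genes lower, as with centring on ribosomal proteins (8), and 8 member probe sets were higher, the third of FGFR3 and the fifth of FGFR2 in addition. That centring gave 1574 higher and 2413 lower probe sets. Without single arrays, 831 to 2987 probe sets were higher and 677 to 2048 lower, 3 to 6 member probe sets were higher and none lower, and 7 to 17 other pathway genes were higher and 4 to 9 lower, in each case the most without hypertrophic array 1.

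Directions turned only for differences that had not passed. The second probe set of FGFR3 gave -0.073 with ribosomal centring, -0.13 with averaged arrays and -0.089 to 0.127 without single arrays. The fourth gave 0.032 with cyclic loess, 0.016 with averaged arrays and -0.056 to 0.047 without single arrays. The brighter of FGFRL1 gave -0.013 with ribosomal centring and -0.0200 to 0.219 without single arrays, and the brighter of SPRED2 gave 0.093 with averaged arrays and -0.358 to 0.075 without single arrays. The 3' minus 5' value of ACTB ranged from -0.344 to 0.00054.

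Deviations of same-numbered arrays from their group means had correlations of 0.213, 0.0266, 0.255 and -0.0003 over 19219 probe sets. Only proliferative array 3 and hypertrophic array 1 correlated best with their own number. Every best match lay within arrays 1 and 2 or within arrays 3 and 4. Arrays 3 and 4 of a group were close to each other, so these values cannot decide whether the numbers pair the samples. With the replicate block 5 member probe sets were higher, and all probe sets gave 1566 higher and 1628 lower. Members below or near background, SPRY1, FGF2 and the dimmest probe sets, are limited by signal.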
